A study of Bos taurus with 2 samples.

Results

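Low-methylated CpG-poor windows of the cattle genome were examined in 2 bone samples, Bone_1 and Bone_2, both labelled as bone of female Holstein cattle. Their DNA had been read by whole-genome bisulfite sequencing (WGBS), which turns unmethylated cytosines into thymines, so that each read counts a CpG it covers as methylated or not (a call). No treatment, genotype or age is given for either sample, and the sources used here do not say whether they come from 1 animal or 2, so an SD here measures only how far the libraries lie apart, which may be technical. A methylation level is the number of methylated calls over all calls, in percent. The windows are 1 kb pieces of chromosomes 1 to 29 with 3 to 9 CpG sites, covered by 30 calls or more per sample, more than 5 kb from any window with 40 or more CpG sites, and under 25% in both samples. Of 886522 windows that met all but the last condition, here called eligible, 1514 met it too (0.171%). They held 9305 CpG sites. The windows were thus chosen by their methylation levels in both samples, and these levels are given as a description, without a test.

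In mammals, most CpG sites outside CpG islands are methylated by the DNA methyltransferases. Short stretches of low methylation in CpG-poor sequence are known from many tissues, where they often mark distal regulatory elements such as enhancers, at which bound transcription factors and the TET enzymes keep methylation low. CpG-poor promoters of genes used in few cell types can look alike. Bone holds bone-forming osteoblasts, osteocytes, bone-resorbing osteoclasts, cartilage, vessels and, in its marrow, blood cells and fat cells, and a tissue methylome averages over all of them. A lower level in 1 cell type and a larger share of that cell type cannot be told apart in such data.

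The windows were low to a similar degree in both libraries. Summed over all 1514 windows, 15.3% of 128348 calls were methylated in Bone_1 and 16.6% of 178745 calls in Bone_2, or 15.9% ± 0.900 (SD, n = 2). The other 885008 eligible windows were at 76.9% in Bone_1 and 59.9% in Bone_2, or 68.4% ± 12.0 (SD, n = 2). The rule, which sets one ceiling for both samples, fixes most of this. The median window was at 16.3% in Bone_1 (interquartile range 10.2 to 20.5%) and 17.8% in Bone_2 (12.5 to 21.4%). In Fisher's exact test (two-sided, on the calls of each window, Benjamini-Hochberg adjusted over all windows tested on these chromosomes), 150 of the 1514 windows differed between the libraries at an adjusted p under 0.05, beside 66.2% of all 2090238 windows tested. Since the rule used these levels, nothing is read from that count. The ceiling of 25% in Bone_1 leaves little room for a lower level in Bone_2, so no direction is read from it either.

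**Figure D1:**
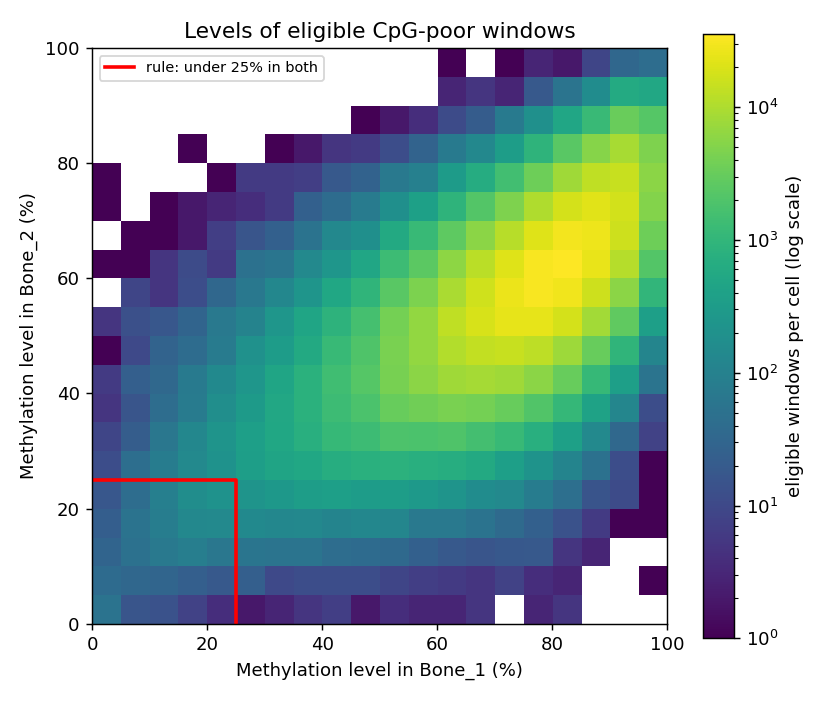
Number of eligible CpG-poor windows (colour, log scale) by methylation level in Bone_1 (x axis, percent) and Bone_2 (y axis, percent), in cells of 5 percentage points. The red lines bound the 1514 windows under 25% in both samples, which lie far below the bulk of windows, whose medians are 78.0% in Bone_1 and 59.6% in Bone_2.

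Of the 886522 eligible windows, 3452 were under 25% in Bone_1 and 5941 in Bone_2. Of those low in Bone_1, 43.9% were also under 25% in Bone_2. Of those low in Bone_2, 25.5% were also under it in Bone_1. The 4427 windows low in Bone_2 alone had a median of 46.7% in Bone_1. The 1938 windows low in Bone_1 alone had a median of 35.5% in Bone_2. The threshold therefore runs through a continuous range. Of the 1514 windows, 765 were at 20% or more in at least 1 sample, and 143 were under 10% in both. The 5 windows just inside the threshold had their higher level, in Bone_2, between 24.8 and 24.9%, near LIN7A, ARHGAP18, SKINT1, LOC112444922 and MSRB3, and a window near ZMAT2, later by position, tied with that near LIN7A. Just outside it were windows with a higher level of 25%, the earliest of them near LOC618212, PLOD2, CLSTN2, ACP3 and OCA2.

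Depth limits how firmly a single window is known to lie under 25%. The median window held 64 calls in Bone_1 and 109.5 in Bone_2, against 75 and 122 over all eligible windows. In 377 of the 1514 windows (24.9%) the upper end of the 95% Wilson interval was under 25% in both samples. Such intervals cover nothing but counting error. Duplicate reads had been removed by the authors, but 1 read can still call several sites. The rate of low-methylated windows went down with depth, from 2.35 per 1000 eligible windows with 30 to 40 calls in the less deep sample to 0.963 per 1000 with over 150 calls. It was 3.41 per 1000 in windows with 3 CpG sites, 2.06 in those with 4, and between 1.49 and 1.57 in those with 5 to 9, without a steady decline. In 52 windows (3.43%) the calls per site exceeded 3 times the median of eligible windows in at least 1 sample, against 4.20% of eligible windows. This was mostly a trait of Bone_1, with 46 of the 52 windows deep in Bone_1 and 8 in Bone_2. Of eligible windows, 37082 were deep in Bone_1 and 306 in Bone_2. One of the 52, a window in ERG, 133.1 kb from its end, held 528 calls in Bone_1 and 167 in Bone_2. The part of depth in the choice of windows was not tested.

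Within the windows, most sites were low in methylation, which the rule largely fixes, as it summed the calls of these same sites. At 7456 sites both samples had 5 calls or more, and of these 76.4% were under 25% in Bone_1, 76.9% in Bone_2 and 68.3% in both. Only 277 sites (3.72%) were over 50% in both samples, and they fell in 254 of the windows. The sites of a window spanned a median of 615 bp, against 714 bp in the other eligible windows. From the nearest methylated site on one side of the window to the nearest on the other, a site being called methylated where the mean level of both samples was over 50%, the distance had a median of 1853 bp (interquartile range 1456 to 2515 bp) and enclosed a median of 10 CpG sites. It was over 3000 bp for 230 windows (15.2%). The search began outside the window, so no distance could fall under 1000 bp, whatever the sites inside. Sites with under 5 calls in either sample were passed over, which can lengthen the distance. It was not computed for the other eligible windows, so the length is in part set by the rule and the search.

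Among windows with at least 6 CpG sites, the 10 with the lowest mean levels were all at or below 2.13% in both samples, and 3 of them had no methylated call in either sample. ALCAM encodes an adhesion molecule of the immunoglobulin family. A window inside this gene, at chr1:50088001-50089000, gave 0 of 93 calls in Bone_1 and 0 of 83 in Bone_2, which allows a share of up to 3.23% and 3.61%, taken as 3 methylated calls of the total. The upper ends of the 95% Wilson intervals were 3.97% and 4.42%. All 8 sites of this window lay within 248 bp. Both adjacent windows together were at 100% of only 16 calls in Bone_1 and at 68.3% of 161 calls in Bone_2. Windows at chr1:36664001-36665000 and chr9:52281001-52282000, 171.2 kb and 181.1 kb from the nearest end of a protein-coding gene, gave 0 of 47 and 0 of 70 calls, and 0 of 39 and 0 of 100 calls, in Bone_1 and Bone_2.

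TLR3 encodes a receptor for double-stranded RNA. The window at its end, chr27:16176001-16177000, had 0 of 88 calls methylated in Bone_1 and 0.658% of 152 calls in Bone_2. Its 9 sites were spread over 781 bp. Its neighbours were low as well, at 16.3% and 29.6%. MR1 encodes a molecule that presents vitamin B metabolites to T cells. At chr16:62161001-62162000, over an end of MR1, the level was 0 of 36 calls in Bone_1 and 0.746% of 134 calls in Bone_2. In contrast to TLR3, the neighbours were methylated, at 92.8% and 77.0%.

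NFYC encodes a subunit of the CCAAT-binding factor NF-Y. Its window at chr3:105493001-105494000 had 0 of 127 calls methylated in Bone_1 and 1.18% of 170 calls in Bone_2. DNAJB4 encodes a heat shock co-chaperone, and its window at chr3:66672001-66673000 was at 0.870% of 115 calls and 1.64% of 244 calls. In Bone_1 nearly all calls came from the sites at positions 66672822 to 66672984, with 10 to 45 calls each. The sites before them, up to position 66672746, had 0 or 1 call each in Bone_1. The next window, toward higher coordinates, was low too, at 4.17% and 2.97%, which makes DNAJB4 one of the few genes with adjacent low-methylated windows. The remaining 3 of the 10 lay inside CYP4F22, 120.7 kb from PAX8 and 142.2 kb from HDDC2, at 0 to 2.13% in both samples.

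Few of the windows adjoined another that met the whole rule. This held for 42 of the 1514 (2.77%), in 21 runs of 2 windows and none longer, and the count leaves out low neighbours that failed the rule on CpG sites, calls or distance. Without Bone_1, under a rule on Bone_2 alone, 9.22% of the windows were in runs. The first of these by position were in ST3GAL6 (22.5% and 14.5% in Bone_1 and Bone_2, then 2.99% and 11.01%), 31.7 and 30.7 kb from DGKG (23.5% and 24.1%, then 9.09% and 12.8%), in ERG (9.86% and 17.7%, then 15.2% and 18.0%), in CYTIP (16.0% and 17.0%, then 14.0% and 13.3%) and in DNAJB4. ERG is a transcription factor of endothelial and blood stem cells, and CYTIP binds the cytohesins of leukocytes.

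The rule did not use the level outside a window, except where an adjacent window met the rule too. This was so for 42 of the 1514 windows (2.77%), whose adjacent windows include one held under 25% by the rule. One read can also give calls on both sides of an edge. In the 250 bp on either side of the low-methylated windows the level was 54.5% in Bone_1 and 44.1% in Bone_2, against 78.4% and 60.8% beside the other eligible windows. From 500 to 1000 bp beyond the edge it was 70.7% and 53.9%, and from 2500 to 4500 bp it was 75.1% and 57.3%, against 78.2% and 60.5%. Over both adjacent windows the level was 58.1% ± 10.7 (SD, n = 2), at 65.6% and 50.6%, against 69.5% ± 12.5 (SD, n = 2), at 78.4% and 60.7%. The adjacent windows were the less methylated ones around the low-methylated windows on 29 of 29 chromosomes in Bone_1, and likewise in Bone_2. Adjacent windows summed to under 25% in both samples at 47 of 1480 low-methylated windows with enough calls (3.18%), against 0.0602% of the others. They were under 50% in both samples at 16.8%, against 1.72%. No test across the 2 samples was run, as no exact test on so few can reach a p of 0.05, and windows are not replicates.

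**Figure D2:**
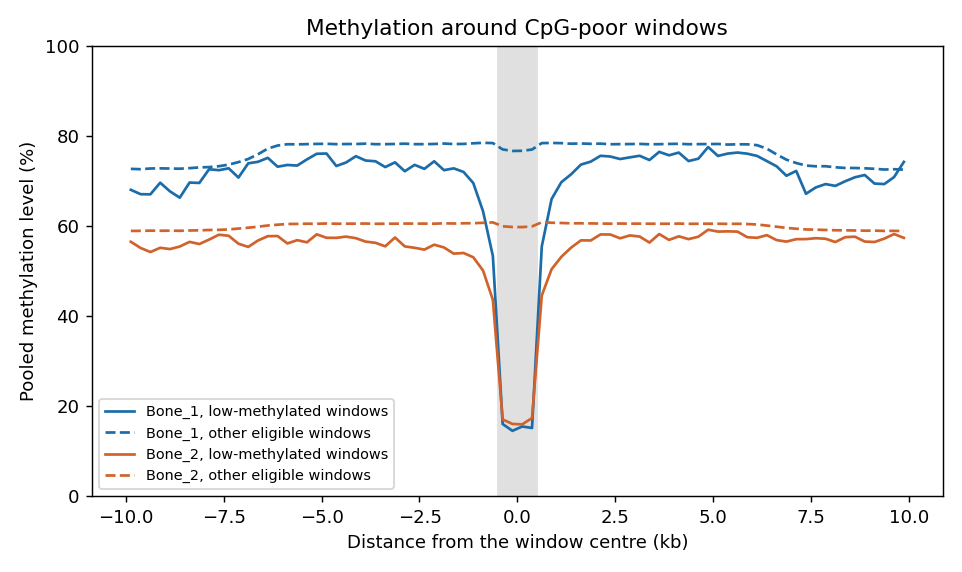
Pooled methylation level (y axis, percent) in bins of 250 bp by distance from the window centre (x axis, kb), for the 1514 low-methylated windows (solid) and the other eligible windows (dashed) in Bone_1 (blue) and Bone_2 (orange); the grey band is the window that the rule used. Outside it the solid lines climb from 54.5% and 44.1% in the first 250 bp to 75.1% and 57.3% at 2500 to 4500 bp from the edge, while the steps near 6 kb come from the rule, which bars CpG-dense windows only up to there.

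Most of the windows lay away from the ends of genes, as far as a RefSeq gene table of ARS-UCD2.0 can place them. The sample labels name ARS-UCD1.2 as the build of the calls. The table was used because 55.3% of 20280 protein-coding genes had a low-methylated window with at least 30 CpG sites over one of their ends, against 5.76% and 5.77% at positions shifted by 5 kb either way, and because the share was at least 16.9% in each of 261 segments of 10 Mb, of which only 7 and 6 reached 15% at the shifted positions. It gives no strand and no exons, so a start cannot be told from an end, nor an exon from an intron. Of the 1514 windows, 1378 (91.0%) lay over 1 kb, and 1210 (79.9%) over 5 kb, from an end of any annotated gene. Over all eligible windows these shares were higher, at 96.3% and 87.8%. Gene bodies of protein-coding genes held 583 windows (38.5%), against 39.8% of eligible windows. This order turned with 60 calls or more per sample, at 42.7% against 40.1%, and with 5 to 9 CpG sites, at 43.1% against 40.6%. It held under a rule on Bone_2 alone, at 26.6% against 39.4%, and under one on Bone_1 alone, at 39.3% against 39.7%.

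A larger share of the windows than of eligible windows lay close to ends of genes. Within 1 kb of an end of a protein-coding gene lay 82 of them (5.42%, 95% Wilson interval 4.38 to 6.67%), against 1.81% of eligible windows. Without Bone_1, under a rule on Bone_2 alone, it was 2.95% against 1.80%, and without Bone_2 it was 4.57% against 1.81%. The intervals given here take windows as independent, which neighbouring windows need not be, and cover no difference between libraries. They are no test against the eligible windows. Within 5 kb lay 188 (12.4%, 10.9 to 14.2%) against 6.35%, and the share was the higher one on 23 of 29 chromosomes. The rate went down with distance in every step, from 6.34 per 1000 eligible windows among those that hold an end to 1.32 per 1000 over 100 kb away. The median distance was 42992 bp, against 72123 bp over all eligible windows. By distance to CpG-dense windows the rate did not go one way throughout. It was 2.30 per 1000 at 5 to 10 kb, 2.42 at 10 to 20 kb, 1.21 at 200 to 500 kb and 1.34 over 500 kb. Among the 377 windows whose upper limits lay under 25%, 7.16% were within 1 kb of such an end.

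**Figure D3:**
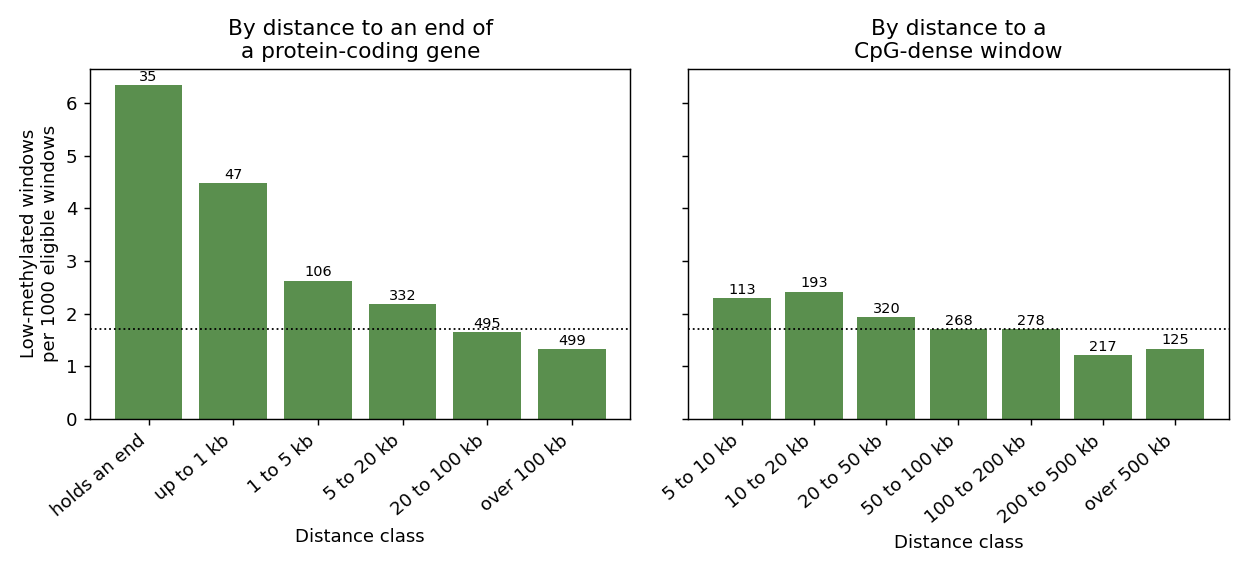
Low-methylated windows per 1000 eligible windows (y axis, bars from 0) by distance to an end of a protein-coding gene (left) and to a window with 40 or more CpG sites (right); the numbers above the bars count the low-methylated windows and the dotted line is the rate over all eligible windows, 1.71 per 1000. The bars fall from 6.34 to 1.32 on the left, while those on the right start at 2.30, peak at 2.42 and end at 1.21 and 1.34.

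In 35 windows the sequence held an end of a protein-coding gene. They were grouped after their values had been seen, and no theme was tested: the share of any kind of gene among all eligible windows with a gene end was not computed. Their levels ran from 0 to 24.8% with a median of 14.0% in Bone_1, and from 0.658 to 24.7% with a median of 16.1% in Bone_2. Besides TLR3 and MR1, 15 of the genes are given with what they do, and most of the others by name. NLRP3, the sensor of an inflammasome, had 16.3% of 172 calls methylated in Bone_1 and 17.3% of 133 in Bone_2 at chr7:40661001-40662000. CASP4, a caspase that responds to bacterial lipopolysaccharide, was at 4.55% of 44 calls and 9.79% of 143 calls. In IFIT3, an interferon-induced gene, the levels were 7.69% of 78 calls and 20.1% of 174 calls. TRIM5, which restricts retroviruses, was at 4.29% of 70 and 5.45% of 202 calls, and its relative TRIM34 at 0 of 34 and 7.69% of 65 calls.

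CCR2, the chemokine receptor of monocytes, was at 19.7% of 61 calls in Bone_1 and 20.7% of 135 calls in Bone_2. C5AR1, the receptor for the complement fragment C5a, was at 21.2% of 52 and 17.0% of 159 calls. NCF4 encodes a subunit of the phagocyte NADPH oxidase, and its window was at the edge of the rule, at 24.8% of 113 and 24.7% of 73 calls. HAVCR2, an inhibitory receptor of T cells, was at 11.8% of 153 and 19.7% of 173 calls. SRGN encodes serglycin, the granule proteoglycan of blood cells, and its level differed between the samples, at 0 of 34 and 18.4% of 76 calls.

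ALDH1A1, which makes retinoic acid, was at 22.0% and 11.8%, KYNU, an enzyme of tryptophan breakdown, at 18.6% and 14.6%, and DNAJC12, a co-chaperone, at 2.68% and 4.42%. The 2 genes named as olfactory receptors among the 35, OR6C5 and OR8AR1, were at 12.6 to 23.5% in windows with 3 and 4 CpG sites. The remaining genes included VGLL3, ADGRG7, LRRC31, RESP18, MGAM, CLEC2D, MMRN1, GCSAML, LIX1, B3GALT2, DPEP2, ZSCAN9, NUDT13, LOC112447524, LOC616948, LOC512440 and LOC786065. Their levels ran from 2.70% (NUDT13) to 24.1% (VGLL3) in Bone_1 and from 2.56% (LRRC31) to 22.6% (MMRN1) in Bone_2. The adjacent windows of HAVCR2, at 88.8% and 56.8%, and of DNAJC12, at 88.3% and 54.5%, were far more methylated than the windows themselves. Those of NLRP3, at 24.4% and 17.8%, of TRIM5, at 19.8% and 28.8%, and of SRGN, at 25% and 26.2%, were low as well, as were those of TLR3. KYNU had neighbours at 7.69% and 19.0%, the former on 13 calls.

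**Figure D4:**
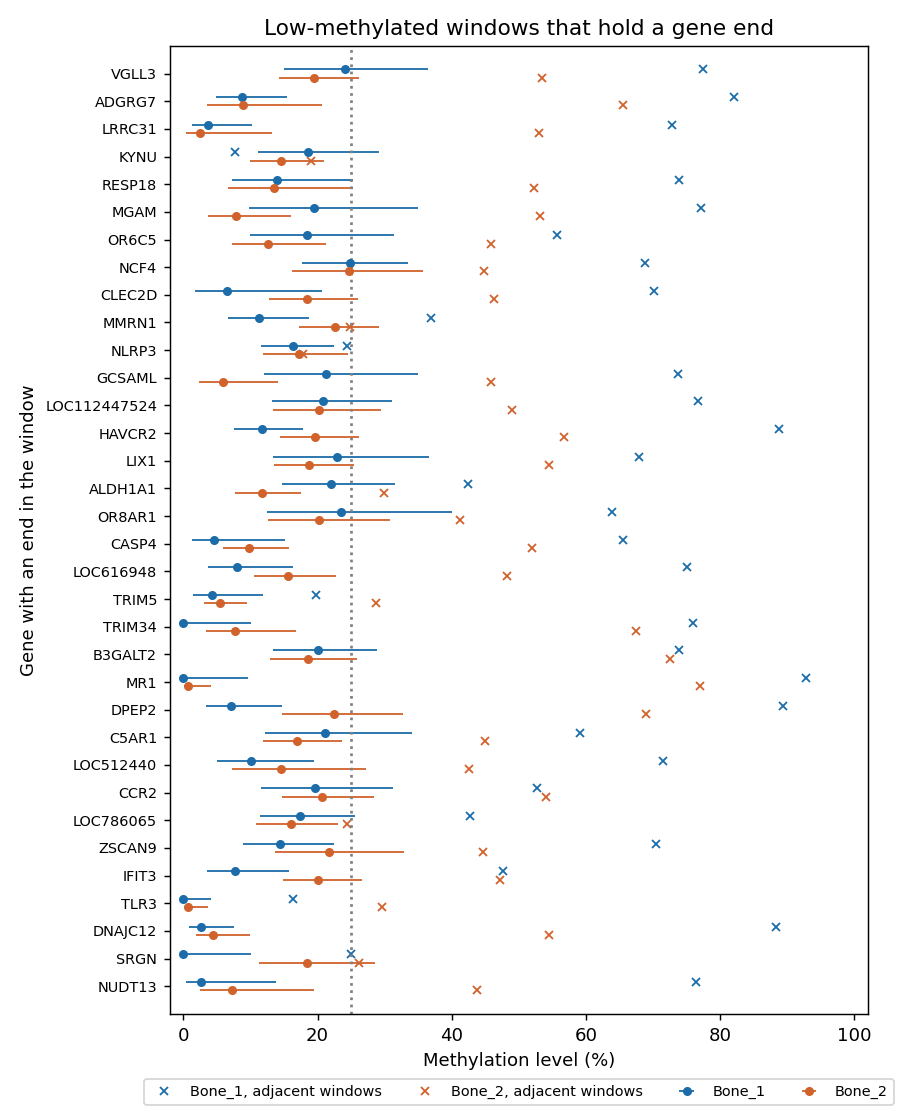
Methylation level (x axis, percent) of 34 of the 35 low-methylated windows that hold an end of a protein-coding gene (y axis), with 95% Wilson intervals, in Bone_1 (blue dots) and Bone_2 (orange dots); crosses give the level of both adjacent windows together and the dotted line is 25%. All dots lie left of 25% by the rule, TLR3 and MR1 near 0, while most crosses lie to the right, as for HAVCR2 at 88.8% in Bone_1.

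Near genes that mark the cells of bone the rate of low-methylated windows was close to that over all eligible windows. Within 100 kb of an end of 86 genes from lists of osteoblast and osteocyte, osteoclast, cartilage, leukocyte, erythroid, fat, endothelial and mesenchymal genes lay 5641 eligible windows, of which 10 were low-methylated (1.77 per 1000), beside 1.71 per 1000 over all eligible windows. The 2 sets are unlike in distance. Of all eligible windows, 42.6% lay over 100 kb from an end of any protein-coding gene, at 1.32 per 1000. Those at 20 to 100 kb were at 1.65 and those at 5 to 20 kb at 2.18 per 1000. A rate matched for distance was not computed. The osteoblast and osteocyte list had 3 of 1037 windows, the osteoclast list 2 of 691, the leukocyte list 3 of 1080, the fat list 1 of 411 and the mesenchymal list 1 of 688. For the hepatocyte list it was 2 of 570 windows and for the skeletal muscle list 2 of 398, and for the neuron list 0 of 611. The chondrocyte, erythroid and endothelial lists had none within this reach, of 740, 402 and 626 windows. It leaves out the middle of long genes. ERG, on the endothelial list, held low-methylated windows 132.1 and 133.1 kb from its end. One window nearest to SOX5, on the chondrocyte list, lay 100360 bp from its end. Differences between lists were not tested. Without Bone_1 the rule on Bone_2 alone took 0.607% of the eligible windows near the bone and marrow lists, and without Bone_2 it took 0.461%, against 0.177% with both samples. Over all eligible windows these rules took 9.26 and 3.91 per 1000. The share near the lists was thus the lower one under the rule on Bone_2 and the higher one under that on Bone_1.

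Most list genes had no such window within 100 kb of an end: it was found for 3 of 16 osteoblast and osteocyte genes, 2 of 11 osteoclast genes and 3 of 19 leukocyte genes. The share of all protein-coding genes with such a window was not computed, so nothing is read from these counts. RUNX2 encodes the transcription factor that commits cells to the osteoblast fate. A window 0.2 kb from one of its ends, at chr23:18594001-18595000, inside SUPT3H as well, had 19.2% of 52 calls methylated in Bone_1 and 21.8% of 234 calls in Bone_2. SP7, which acts after RUNX2 in osteoblasts, had a window 16.6 kb away at 8.47% of 59 and 15% of 180 calls. MSX2, a homeobox gene of skeletal development, had one 91.7 kb away at 13.8% of 130 and 22.4% of 76 calls.

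Osteoclast genes had 2 such windows. ATP6V0D2, a subunit of the proton pump by which osteoclasts acidify bone, had one 20.2 kb from its end at 4.55% of 44 calls in Bone_1 and 7.56% of 119 calls in Bone_2. DCSTAMP, needed for the fusion of osteoclast precursors, had one 49.6 kb away, inside DPYS, at 15.9% of 208 and 21.3% of 155 calls. The windows adjacent to that near ATP6V0D2 were at 85.5% and 66.1%, and those adjacent to that near SP7 were at 82.7% and 76.2%, whereas at RUNX2 they were at 40.9% and 30.7%.

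Among leukocyte genes, ITGAM, the integrin CD11b of myeloid cells, had a window 24.0 kb away at 16.4% of 110 and 11.3% of 142 calls. IKZF1, the lymphoid transcription factor Ikaros, had one in its body at 24.7% of 81 and 20.7% of 58 calls. S100A8, a subunit of calprotectin, had one 95.2 kb away at 11.6% of 86 and 18.4% of 103 calls. FABP4, the fatty acid carrier of fat cells, had a window 32.1 kb away that was lower in Bone_1, at 3.70% of 54 calls against 21.8% of 87. LEPR, the leptin receptor, which marks marrow stromal cells, had one 81.5 kb away at 17.6% of 34 and 17.9% of 78 calls. Genes of other organs had them as well: ALB 66 kb away at 10.8% and 16.0%, and APOA1 25.6 kb away at 20.2% and 23.4%. MYF5 had one 41.3 kb away at 16.1% and 24.8%, and DES one 70.9 kb away at 14.0% and 13.5%. Several of these windows were nearer to another gene. The MYF5 window is the one named near LIN7A, and the DES window holds an end of RESP18. Those of ALB, APOA1, ITGAM, S100A8 and FABP4 were nearest to ANKRD17, APOA4, TRIM72, PGLYRP3 and FABP12. Upper ends of the 95% Wilson intervals in Bone_1 and Bone_2 were 24.4% and 17.5% for ITGAM, and 35.1% and 32.8% for IKZF1. For S100A8 they were 20.1% and 27.0%, for FABP4 12.5% and 31.6%, and for LEPR 33.5% and 27.9%. For ALB they were 19.9% and 25.5%, and for APOA1 28.7% and 31.6%. For MYF5 they were 24.9% and 33.2%, and for DES 25.3% in both.

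The windows were scattered over the autosomes, with some local clusters. Chromosome 1 held the most, 103, and chromosome 25 the fewest, 14, and the rate ran from 1.29 per 1000 eligible windows on chromosome 27 to 2.71 on chromosome 19. Of 2496 bins of 1 Mb, 1036 held at least 1 and 11 held at least 5. The fullest, which begins at position 100000001 of chromosome 5, held 9 of 440 eligible windows (20.5 per 1000). CD69, an early activation marker of lymphocytes, held 2 adjoining windows there, at 14.5% and 20.5%, then 16% and 17.9%, in Bone_1 and Bone_2. CLEC2D, a C-type lectin, was nearest to 2 more, at 6.45% and 18.5% and at 20% and 21.6%, and CLECL1 to one at 22.1% and 23.6%. Other windows of this bin were nearest to LOC784329, LOC617565 and LOC784451, at 4.88 to 24.6% in Bone_1 and 10.6 to 20.9% in Bone_2. A2M, which encodes a protease inhibitor of plasma, had one in its body at 12.8% and 11.5%. In the bin from 8000001 to 9000000 on chromosome 3, 6 of 353 windows were low-methylated, and the nearest genes were CFAP126, F11R, CD244, SLAMF7 and SLAMF1, the last of these for 2 windows.

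Bins with 6 windows were also found on chromosome 6, where TECRL and LOC112447087 were the nearest genes, and on chromosome 19, where CA10 and KIF2B were. The first 1 Mb of chromosome 15 held 8 of 334 windows (24.0 per 1000), with OR5M9, OR4C174 and OR4C1N among the nearest genes. The one nearest OR4C1N was at 19.3% in Bone_1 and 4.82% in Bone_2, and its 100 kb bin was low too, at 55.8% and 38.3%. Over all chromosomes the first 2 Mb held 75 windows (4.95%), against 1.99% of eligible windows, and an olfactory receptor was the nearest protein-coding gene for 52 (3.43%) against 1.36%. Genes with several windows in their bodies included ARHGEF3 with 4, and HS3ST4, NLRP3, PDE4D, PDE7B and ST3GAL6 with 3 each. ARHGEF3, a guanine nucleotide exchange factor, had 4 of 98 eligible windows, at 0 to 19.0% in Bone_1 and 2.83 to 22.4% in Bone_2, where the median eligible window of the gene was at 81.2% and 63.5%. NLRP3 had 3 of 29, at 6.78 to 17.8% and 15.4 to 19.7%, against medians of 77.1% and 54.5%. By contrast, PDE4D, a much longer gene for a cyclic AMP phosphodiesterase, had 3 of 766. Bodies of 521 protein-coding genes held at least 1 window.

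Large surroundings were a little less methylated around the windows than around eligible windows. In the 100 kb bin around each, without the window itself, the median level was 73.1% in Bone_1 and 57.9% in Bone_2, against 74.9% and 58.5%. Surroundings under 60% in both samples were found for 135 windows (8.92%, 95% Wilson interval 7.58 to 10.5%) and 4.45% of eligible windows. This interval too takes windows as independent, although windows of the same 100 kb bin have nearly the same surroundings. Surroundings under 60% in Bone_2, whatever their level in Bone_1, were found for 64.1% of the windows and 60.8% of eligible windows. Without Bone_1, with windows chosen on Bone_2 alone, this share was 83.0%. Those windows came from a larger eligible set, for which the share was not computed. By the level of the surroundings in Bone_1, the rate was 3.07 per 1000 up to 50%, 3.37 at 50 to 60% and 2.46 at 60 to 70%. Above that it was 1.40 at 70 to 75%, 1.49 at 75 to 80% and 1.37 over 80%. In this last class lay 245 windows. The part of such broad low regions in the choice of the windows was not tested.

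The bases next to the CpG sites differed in frequency between the windows and the other eligible windows. Contexts on both strands were joined, so that aCGg stands for cCGt as well. Contexts with a G or C on each side were more frequent in the low-methylated windows, with cCGg at 6.17% of 9305 sites against 5.08% of 5695762, gCGc at 3.06% against 2.46% and cCGc at 9.69% against 8.05%. The same held for aCGt at 11.4% against 9.84% and aCGg at 15.8% against 14.1%. Contexts less frequent in them included tCGa, at 5.66% against 7.08%, and gCGa, at 9.87% against 12.3%. The widest of these ratios were 1.24 for gCGc and 0.800 for tCGa. Sites of a window share their sequence, and no test was made of these shares.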

How the data were processed

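WGBS libraries of 2 bone samples were deposited as counts of calls, methylated and not, for the CpG cytosines on either strand, without normalization. To make these deposited counts the authors trimmed reads, mapped them with Bismark and Bowtie2, removed duplicates and extracted calls. The submitters' processing notes name Trim Galore 0.4.5, Bismark 0.19.0 and ARS-UCD1.2, whereas the paper's methods name other versions and another build. Totals were 582241763 calls in Bone_1 and 440334436 in Bone_2.

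Both strands were summed into CpG sites and sites into 1 kb windows. Distances to CpG-dense windows are from edge to edge. Windows with at least 20 calls in each sample entered Fisher's exact test. The members and lists were chosen with earlier results of these data known. Named windows are the 10 lowest with at least 6 sites, the first 5 runs, 5 on each side of the threshold and, for each list, those closest to its genes (up to 5 genes a list, within 100 kb), while windows over gene ends, in the fullest 1 Mb bin and in genes with several were added after their values were seen. Gene ends replace the planned transcription starts, because the gene table has no strand. The planned search for CTCF and other motifs was not run and no window sequence is printed, as no genome sequence was used here. List genes on X were left out. One gene with several windows and 1 window over a gene end are not reported here. The test was checked on simulated data. Scripts ran on Python 3.11.15 with numpy 2.4.6 and pandas 2.3.3. Numba 0.67.0 computed the tests and matplotlib 3.10.9 drew the plots.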

Additional observations from a re-analysis of the deposited data

Results flagged for a closer look

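On the X chromosome, which the rule leaves out, 46 of 50952 windows that met the same conditions on CpG sites, calls and distance were under 25% in both samples (0.0903%), against 0.171% on chromosomes 1 to 29. It was singled out because windows of this kind were present in data outside the comparisons above. The difference was not tested.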

How the results depend on the processing

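Of 74 values recomputed under alternatives, 52 stayed within the tolerance set for them and 22 moved. Counts were held against a fixed factor and shares against the 95% Wilson interval of the main share. For levels the tolerance was the SD of the 2 libraries, 0.900 points for the windows and 10.7 for the flanks. With n = 2, each sample lies within 1 SD of the mean of both. The flanks could thus hardly move with one replicate left out, and nothing is read from their staying. The number of windows was 749 under 20% in both samples, 784 with at least 60 calls and 377 with upper 95% limits under 25%, a setting chosen after seeing the data. Each of these is a stricter set by construction. Their level was then 12.1% under 20% and 9.68% by the upper limits. The share in gene bodies was 42.7% with 60 calls (40.1% of eligible windows) and 43.1% with 5 to 9 CpG sites (40.6%), above eligible windows in place of below them, and the share in runs was 1.06% by the upper limits, with 7.16% within 1 kb of a gene end. Of the eligible windows near lineage genes, 0.177% were low-methylated, and this share was 0.0886% under 20% and 0.0532% by the upper limits, while over all eligible windows the rate went from 1.71 to 0.845 and 0.425 per 1000. With at least 60 calls the share near lineage genes was 0.112%, beside 1.44 per 1000 over all eligible windows. The cause of these shifts was not tested. With one replicate left out, the rule asked for 1 sample only. The number was 3478 without Bone_2 and 11180 without Bone_1. The level ranged from 17.1 to 18.9% and flanks from 49.3 to 67.1%. Runs ranged from 3.31 to 9.22%, and windows within 1 kb of an end from 2.95 to 4.57%. Gene bodies held 26.6% without Bone_1, against 39.4% of the windows eligible then, and 39.3% without Bone_2, against 39.7%. Of the eligible windows near lineage genes, 0.461 to 0.607% were taken. Surroundings under 60% ranged from 7.76 to 83.0%. With both samples, 60.8% of eligible windows had surroundings under 60% in Bone_2, whatever their level in Bone_1. Of the 2090238 windows tested, 753394 had an adjusted p under 0.05 in Fisher's exact test and also differed by 20 points or more. With 60 calls or more in each sample, 1157181 windows passed the test. The number tested at that depth is not given. No paired analysis was possible because the labels hold a single group, so that no groups share replicate numbers. Depth limits single windows, of which 24.9% had both upper limits under 25%.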
